A study of Mus musculus with 8 samples.

Results

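Chemokines, cytokines and their receptors were examined in m6ARIP-seq of mouse liver, as the genes whose names in the peak lists begin with Ccl, Cxcl, Ccr, Cxcr or Il before a digit, or with Tnfsf or Tnfrsf, together with *Tnf*, *Cx3cl1*, *Cx3cr1*, *Ackr3*, *Lif*, *Osm*, *Csf1* and *Ccrl2*. Of 11558 genes with an m6A peak in either genotype, 76 met this rule, and they held 70 of 15635 peaks in *Wtap* flox/flox livers and 128 of 19185 peaks in *Wtap*-HKO livers. The rule uses names only. It covers 177 protein-coding genes of the RefSeq annotation, of which 101, *Lif* and *Osm* among them, had a peak in neither list. The 76 genes were 24 ligands, 49 receptors, the antagonist *Il1rn*, the binding protein *Il18bp* and *Il4i1*, an amino acid oxidase that carries an interleukin name.

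m6ARIP-seq pulls down mRNA fragments that carry N6-methyladenosine (m6A) with an antibody (IP) and sequences them, with the RNA taken before this step sequenced as input. Livers came from C57BL/6 mice at 8 weeks of age on normal chow. *Wtap*-HKO mice carry a floxed *Wtap* gene and Cre recombinase driven by the albumin promoter, which is active in hepatocytes, and *Wtap* flox/flox mice carry the floxed gene without the deletion. Other liver cells of *Wtap*-HKO mice are not targeted by this Cre. Each genotype had 2 IP and 2 input libraries, 8 in all, from liver RNA pooled from several mice. The authors combined the replicates of a genotype before they deposited the lists, so each peak has 1 fold enrichment (IP over input) per genotype and no spread. The depth of the libraries is unknown. No difference below could therefore be set against the error between replicates, and every value is a description of these lists. *Wtap* itself had 3 peaks in each list, which covered 1348 exonic nt in *Wtap* flox/flox livers and 1229 exonic nt in *Wtap*-HKO livers. A peak does not measure the level of an mRNA, so this does not check the deletion.

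Chemokines guide leukocytes along a gradient through receptors that couple to Gi proteins. Interleukins act through paired receptor chains, most of which carry JAK kinases, whereas the IL-1, IL-17 and TNF families signal through adaptor proteins to NF-kB. In liver, hepatocytes, Kupffer cells, endothelial cells and stellate cells make these ligands, and many of the receptors are known from leukocytes. WTAP is a subunit of the complex that writes m6A on mRNA, typically near stop codons and in last exons.

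Peaks of these genes were more numerous in *Wtap*-HKO livers. Over all peaks, the paper identified the canonical GGACU motif in *Wtap* flox/flox livers but did not find it in *Wtap*-HKO livers. Whether peaks of both lists reflect methylation equally well was not tested. Of the 76 genes, 39 had a peak in both lists, 36 in *Wtap*-HKO only and 1, *Cxcl9*, in *Wtap* flox/flox only. The 36 genes make 47.4% of the 76 (exact 95% interval 35.8 to 59.2%, counting error only), beside 22.0% of all genes with a peak. The 1 gene makes 1.32%, beside 7.99% of all genes. The bases under peaks of these genes added up to 26800 exonic nt in *Wtap* flox/flox livers and 54088 exonic nt in *Wtap*-HKO livers, a ratio of 2.02, beside a ratio of 1.19 over all peaks of the lists. The median fold enrichment of their peaks was 8.34 in *Wtap* flox/flox livers and 12.9 in *Wtap*-HKO livers, beside 5.51 and 5.93 over all peaks. The medians of the genotypes are over different peaks, and the 36 genes enter only that of *Wtap*-HKO livers. Peaks that met exactly 1 peak of the other list are set side by side further below.

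Markers of liver cell types other than hepatocytes also had more peaks in *Wtap*-HKO livers. These counts stand beside 22.0% of all genes with a peak in *Wtap*-HKO only and 7.99% in *Wtap* flox/flox only. The bases covered stand beside the ratio of 1.19 over all peaks. The marker lists are short, so single genes weigh heavily in them. Among 10 leukocyte markers, none had a peak in *Wtap* flox/flox livers and 6 had one in *Wtap*-HKO livers (*Ptprc*, *Cd4*, *Cd8a*, *Ms4a1*, *S100a8* and *S100a9*), with highest fold enrichments from 5.11 to 30.7. The other 4, *Cd3e*, *Cd79a* and *Nkg7* among them, had a peak in neither list. Among 10 Kupffer cell and macrophage markers, 3 had a peak in both lists (*Clec4f*, *Csf1r* and *Cd5l*) and 5 in *Wtap*-HKO only, and the bases covered went from 1949 to 6336 nt. *Adgre1* and *Itgam* had no peak in either list. Of 6 sinusoidal endothelium markers, 5 had peaks in both lists, over 2905 nt in *Wtap* flox/flox livers and 5893 nt in *Wtap*-HKO livers. Of 6 stellate cell markers, 3 had peaks in both lists and 2 in *Wtap*-HKO only, over 1830 and 4733 nt. Of 5 bile duct markers 2 had peaks in both lists and 1 in *Wtap*-HKO only, over 512 and 995 nt. All 6 hepatocyte markers (*Alb*, *Apoa1*, *Ttr*, *Cyp2e1*, *Tat* and *Hnf4a*) had a peak in at least 1 list, with *Ttr* in *Wtap*-HKO only and *Cyp2e1* in *Wtap* flox/flox only, and the bases covered were 2121 and 1760 nt. In bulk liver, more cells of a type, more RNA per cell and more methylation per RNA cannot be told apart from a list of peaks. The part of these cell types in the results on ligands and receptors was not tested.

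**Figure D1:**
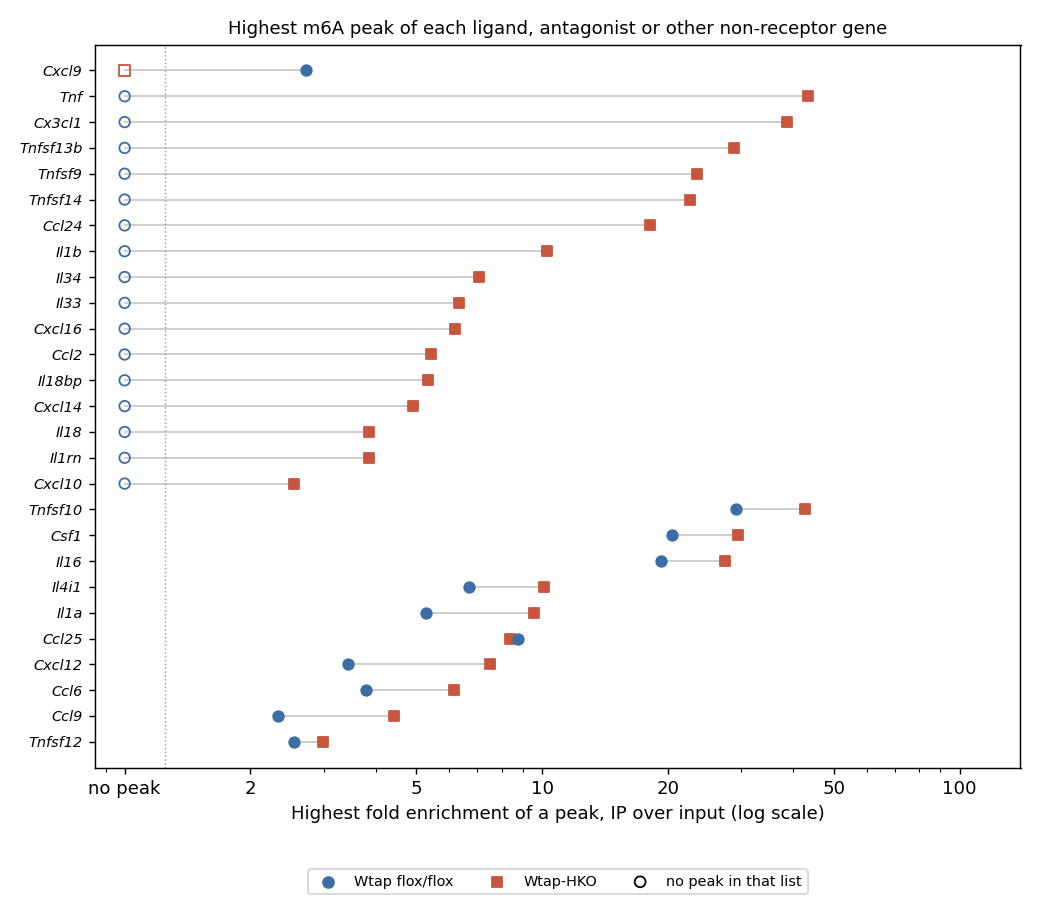
Highest fold enrichment (IP over input, log axis) of any m6A peak in each of the 24 ligand genes, *Il1rn*, *Il18bp* and *Il4i1*, with circles for *Wtap* flox/flox and squares for *Wtap*-HKO livers and open symbols at the left for no peak in that list. *Cxcl9* alone has a peak in *Wtap* flox/flox only, and *Tnf* (43.4) and *Cx3cl1* (38.7) have the highest squares among genes with a peak in *Wtap*-HKO only.

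Among the ligands, the number of genes with a peak was 10 in *Wtap* flox/flox livers and 23 in *Wtap*-HKO livers, and the number of peaks was 15 and 35. Ligands with a peak in *Wtap*-HKO only numbered 14 of 24 (58.3%, exact 95% interval 36.6 to 77.9%), beside 22.0% of all genes with a peak. By class, these were 6 of 11 chemokines, 4 of 7 interleukins and growth factors and 4 of 6 ligands of the TNF superfamily. Of the 38 chemokine genes in RefSeq, 5 had a peak in *Wtap* flox/flox livers and 10 in *Wtap*-HKO livers.

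*Ccl2*, which draws monocytes through *Ccr2*, had no peak in *Wtap* flox/flox. In *Wtap*-HKO livers it had 1 peak of 91 nt at chr11:82037094-82037184 on the plus strand, with a fold enrichment of 5.42 and a false discovery rate (FDR) of 2.5e-13. The peak started 1517 nt into a gene span of chr11:82035577-82037452 and ended 268 nt before its 3´ end. No row of the deposited table of differential peaks named *Ccl2*. Its peak was narrow beside the 35 ligand peaks of *Wtap*-HKO livers, whose median length was 269 nt.

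Other chemokines of monocytes and T cells had peaks of unequal size, most of them in *Wtap*-HKO only. *Cx3cl1* (fractalkine), which acts on *Cx3cr1*, had no peak in *Wtap* flox/flox livers and 3 peaks in *Wtap*-HKO livers, with fold enrichments of 38.7, 4.61 and 27.6 over 1143 nt. The first of them lay at chr8:94779578-94780178 with an FDR of 1.6e-82. *Cxcl10*, a ligand of *Cxcr3*, had 1 peak of 90 nt in *Wtap*-HKO only, with a fold enrichment of 2.55. *Cxcl9*, which acts on the same receptor, had 1 peak of 90 nt in *Wtap* flox/flox only, with a fold enrichment of 2.72. These are the lowest fold enrichments among ligands with a peak in only 1 list, and the lists do not give the reads behind them. *Cxcl16*, the ligand of *Cxcr6*, had a peak in *Wtap*-HKO only (fold enrichment 6.19) at the first base of its gene span, where a peak of *Zmynd15* overlaps it. *Cxcl14* had 1 peak in *Wtap*-HKO only (4.92), and *Ccl24*, an eosinophil chemokine, had 2 (18.1 and 3.75).

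*Cxcl12*, the ligand of *Cxcr4* and *Ackr3*, had peaks in both genotypes. Its 3 peaks in *Wtap* flox/flox had fold enrichments of 2.50, 3.42 and 1.83, and the peaks at the same places in *Wtap*-HKO livers had 5.34, 7.52 and 4.12. All 3 were more than 2 times higher in *Wtap*-HKO livers, on the log2 scale by 1.09, 1.14 and 1.17. Another peak (fold enrichment 2.08) appeared in *Wtap*-HKO only. The first and the third are among the rows of the deposited table of differential peaks, and *Cxcl12* is the only chemokine there.

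*Ccl9* and *Ccl6*, chemokines made by myeloid cells, had peaks in both lists. Whether these genes share reads was not tested. *Ccl9* had 1 peak over the same 240 nt at the start of the gene, with fold enrichments of 2.33 and 4.43. *Ccl6* had 1 peak in both lists with fold enrichments of 3.78 and 3.27, and a second peak 60 nt from the 5´ end in *Wtap*-HKO only (6.16). The *Ccl6* pair was the only ligand pair that was lower in *Wtap*-HKO livers. *Ccl25*, a gut-homing chemokine, had 1 peak in each list (8.78 and 8.36), but they lay at different places and shared no base.

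The interleukins and growth factors showed the same split. *Csf1*, the growth factor of macrophages, had 2 peaks in both lists, with fold enrichments of 20.5 and 8.37 in *Wtap* flox/flox livers and of 29.4 and 15.2 in *Wtap*-HKO livers. *Il1b* had no peak in *Wtap* flox/flox livers and 1 in *Wtap*-HKO livers, with a fold enrichment of 10.3 over 328 nt. *Il1a*, the other agonist of the IL-1 receptor, had a peak of 91 nt with an enrichment of 5.27 in *Wtap* flox/flox, and a peak of 658 nt with 9.59 around it in *Wtap*-HKO livers. The IL-1 family members *Il18* (3.85) and *Il33* (6.32) had a peak in *Wtap*-HKO only, and so did the antagonist *Il1rn* (3.84) and the IL-18 binding protein *Il18bp* (5.33). *Il34*, which acts on the *Csf1* receptor, had a peak of 564 nt close to its 3´ end in *Wtap*-HKO only (7.05), and this peak is a row of the differential table. *Il16* had 3 peaks in *Wtap* flox/flox (12.1, 17.9 and 19.3) and 2 in *Wtap*-HKO livers (13.5 and 27.4). Peaks assigned to *Stard5* overlap some of the *Il16* peaks.

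In the TNF superfamily, *Tnf* had no peak in *Wtap* flox/flox livers and 1 peak of 269 nt at chr17:35200066-35200334 on the minus strand in *Wtap*-HKO livers. Its fold enrichment of 43.4 was the highest of all ligand peaks, at an FDR of 1.0e-11. *Tnfsf10* (TRAIL), a ligand of death receptors, had 1 peak at the same place in both lists, with fold enrichments of 29.1 and 42.6. *Tnfsf13b* (BAFF), the survival factor of B cells, had a peak in *Wtap*-HKO only (28.9, 570 nt, ending 47 nt before the 3´ end). *Tnfsf14* (22.6 and 13.6) and *Tnfsf9* (19.0 and 23.5) had 2 peaks each in *Wtap*-HKO only. *Tnfsf12* (TWEAK) had the lowest fold enrichments of the 6, with 2.54 in *Wtap* flox/flox livers and 2.98 and 2.20 in *Wtap*-HKO livers.

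Several of these values recur. Both the fold enrichment and the FDR were identical for *Tnf* and *Il12rb1* (43.4), for *Tnfsf9*, *Il2ra* and *Tnfrsf13c* (23.5), for *Tnfsf9* and *Il18r1* (19.0) and for *Ccr9* and *Tnfrsf22* (19.9) in *Wtap*-HKO livers. Such repeats with any other gene occurred in 26 of 128 peaks (20.3%), beside 17.3% of all *Wtap*-HKO peaks. They were unevenly spread, with 17 of them among the 49 peaks of the 36 genes with peaks in *Wtap*-HKO only. The reason for these repeats was not tested.

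Of the inflammatory genes that the study measured by RT-qPCR in liver, those under the name rule were followed whether or not they had a peak. Of these 13 genes, *Csf1* and *Ccr2* had peaks in both lists, and *Tnf*, *Il1b*, *Ccl2*, *Cxcl10* and *Cx3cl1* in *Wtap*-HKO only. *Il6*, *Ccl3*, *Ccl5*, *Ccl22*, *Cxcl2* and *Cxcl5* had a peak in neither list, which leaves their m6A unmeasured. None of these 13 genes had a row in the differential table. Of all genes with a peak in either list 27.8% had one, a base that leaves out genes without a peak such as *Il6*.

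**Figure D2:**
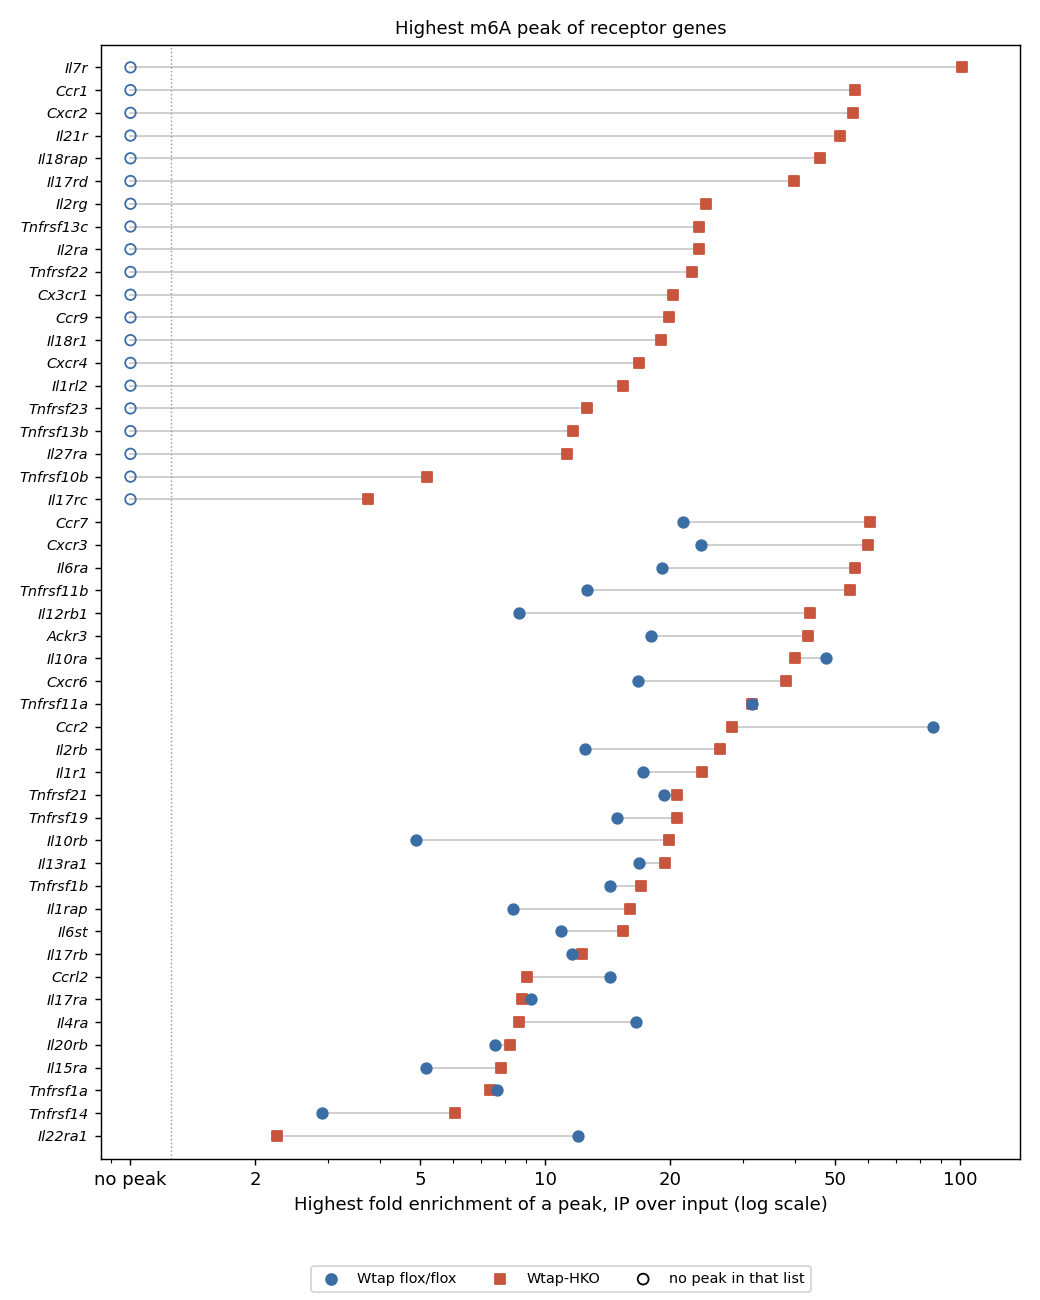
Highest fold enrichment (IP over input, log axis) of any m6A peak in 48 of the 49 receptor genes, with circles for *Wtap* flox/flox, squares for *Wtap*-HKO livers and open circles for no peak in *Wtap* flox/flox. The upper 20 genes have a peak in *Wtap*-HKO only, and of the 28 genes below them 20 have the square to the right of the circle.

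All 49 receptors had a peak in *Wtap*-HKO livers and 29 had one in *Wtap* flox/flox, with 89 and 52 peaks. Receptors with a peak in *Wtap*-HKO only were 20 of 49 (40.8%, exact 95% interval 27.0 to 55.8%), beside 22.0% of all genes with a peak. They were 5 of 12 chemokine receptors, 10 of 25 interleukin receptor chains and 5 of 12 members of the TNF receptor superfamily. The median fold enrichment of receptor peaks was 8.75 in *Wtap* flox/flox livers and 16.2 in *Wtap*-HKO livers, above the 5.27 and 7.52 of ligand peaks. The medians of the genotypes are over different peaks, and the 20 receptors enter only that of *Wtap*-HKO livers. At the 36 receptor peaks that met exactly 1 peak of the other list, the median log2 ratio was 0.15.

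Of the 3 receptor classes, chemokine receptors had the widest gap in covered length, from 1891 to 12162 nt, a ratio of 6.43. Interleukin receptor chains went from 15705 to 21737 nt (1.38) and TNF receptors from 3955 to 7102 nt (1.80). All 7 chemokine receptors with peaks in both lists had more bases covered in *Wtap*-HKO livers, by ratios of 3.86 to 8.99 in the 6 named here. Over the 39 genes with peaks in both lists the number with more bases in *Wtap*-HKO livers was 29 (74.4%, exact 95% interval 57.9 to 87.0%), beside 51.7% of all such genes.

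*Ccr2*, the receptor of *Ccl2* on monocytes, had the highest fold enrichment of the 70 *Wtap* flox/flox peaks, 86.1, in a peak of 150 nt at chr9:124106455-124106604 on the plus strand. In *Wtap*-HKO livers a peak of 509 nt around it had a fold enrichment of 28.2. The log2 ratio was -1.61, while the FDR was smaller in *Wtap*-HKO livers, at 1.0e-148 against 1.3e-24. Another 2 *Ccr2* peaks (7.88 and 13.1) appeared in *Wtap*-HKO only and the second lies outside the RefSeq span of *Ccr2*. The deposited lists do not say how reads shared by paralogs were placed.

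Peaks were also longer in *Wtap*-HKO livers in the other chemokine receptors with peaks in both lists. *Cxcr3*, the T cell receptor of *Cxcl9* and *Cxcl10*, had 2 peaks in *Wtap* flox/flox (23.7 and 10.1) within 1 peak of 568 nt in *Wtap*-HKO livers (60.1), and a further peak at its 5´ part in *Wtap*-HKO only (23.9). *Ccr7*, which brings dendritic cells and naive T cells to lymph nodes, had 1 peak in each list, of 151 nt with 21.5 and of 690 nt with 60.7. *Cxcr6*, the receptor of *Cxcl16*, had a peak of 149 nt in *Wtap* flox/flox (16.7), with 3 in *Wtap*-HKO livers (25.7, 4.18 and 38.1). *Ackr3*, the atypical receptor of *Cxcl12*, had 18.0 over 181 nt and 43.1 over 688 nt at the same place. In *Ccrl2*, as in *Ccr2*, the longer peak had the lower fold enrichment. *Ccrl2* had 14.3 over 180 nt in *Wtap* flox/flox livers and 9.03 over 628 nt in *Wtap*-HKO livers. None of the 12 chemokine receptors had a row in the table of differential peaks, beside 27.8% of all genes with a peak in either list.

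The 5 chemokine receptors with peaks in *Wtap*-HKO only were *Ccr1*, *Ccr9*, *Cx3cr1*, *Cxcr2* and *Cxcr4*. *Ccr1*, a receptor of myeloid cells, had 1 peak of 1432 nt with a fold enrichment of 56.0 at an FDR of 4.0e-20. *Cxcr2*, the neutrophil receptor, had 55.1 over 210 nt. *Cx3cr1* had 2 peaks (13.9 and 20.3) over 1761 nt, and *Cxcr4*, the signalling receptor of *Cxcl12*, had 2 (16.2 and 16.8) over 861 nt. *Ccr9*, the receptor of *Ccl25*, had 1 peak of 121 nt (19.9) at an FDR of 5.4e-05.

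**Figure D3:**
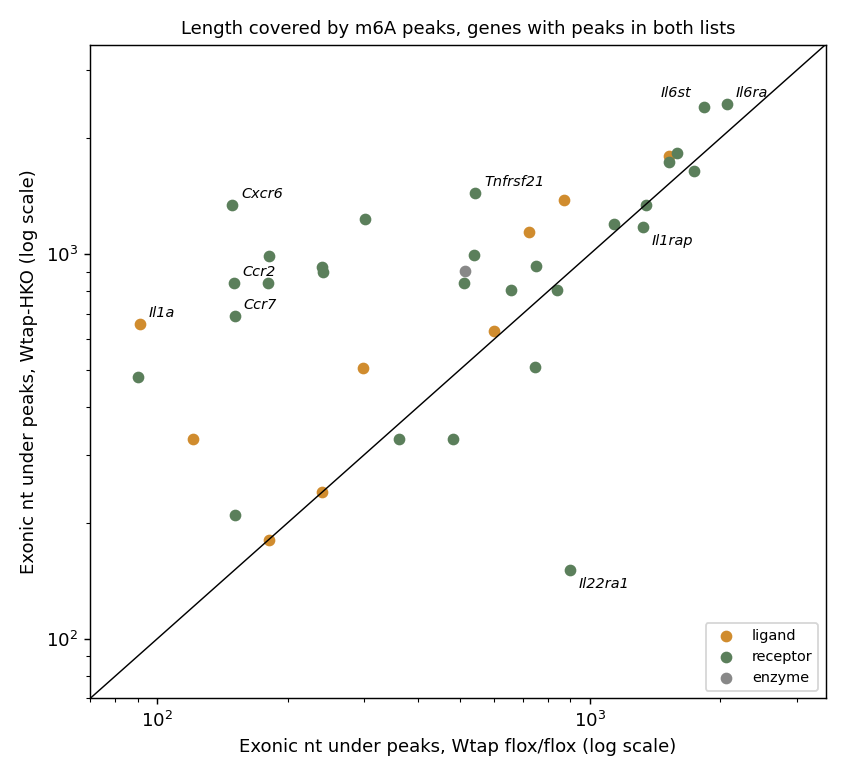
Exonic bases under m6A peaks in *Wtap* flox/flox (x axis) and *Wtap*-HKO livers (y axis), both log scales, for 38 of the 39 genes with peaks in both lists, coloured by role, with the line of equal length. Points above the line number 28, with the chemokine receptors *Cxcr6*, *Ccr7* and *Ccr2* well above it and *Il22ra1* farthest below.

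*Il6ra* and *Il6st*, the chains of the IL-6 receptor, had peaks in both genotypes and a further one at the 5´ end in *Wtap*-HKO livers. *Il6ra*, the IL-6 binding chain, had 4 peaks in each list. Over its last exons the fold enrichments were close, at 3.79 and 9.66 in *Wtap* flox/flox livers and 3.83 and 8.84 in *Wtap*-HKO livers. Downstream of the RefSeq span, 2 peaks in *Wtap* flox/flox (19.1 and 6.15) lay within 1 peak of 778 nt in *Wtap*-HKO livers (56.0), and this region is a row of the differential table. A peak over the first 180 nt of the gene (6.61, FDR 1.0e-18) was in *Wtap*-HKO only. *Il6st* (gp130), the shared signalling chain, had a long peak in the last part of the gene in both lists, with 10.9 over 1681 nt and 15.4 over 1801 nt. Its distal peak had 1.80 in *Wtap* flox/flox livers and 2.80 in *Wtap*-HKO livers, and this is the *Il6st* row of the differential table. The peak of *Il6st* that starts 30 nt from its 5´ end (5.87, FDR 1.0e-39) was in *Wtap*-HKO only.

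Chains of the IL-1 receptor were mixed. *Il1r1*, which binds IL-1, had 2 peaks in each list, with 17.2 and 2.93 in *Wtap* flox/flox livers and 23.9 and 7.31 in *Wtap*-HKO livers, and the second is a row of the differential table. *Il1rap*, its accessory chain, had 3 peaks in *Wtap* flox/flox (5.94, 8.37 and 6.69) and 5 in *Wtap*-HKO livers. The middle one of the 3 was higher in *Wtap*-HKO livers (16.0), the one at the 3´ end was lower (3.23), and the first was split into peaks of 5.79 and 1.84. The remaining *Il1rap* peak, of 211 nt over the first exons, had a fold enrichment of 5.94 in *Wtap*-HKO only and is a row of the differential table. The related chains *Il1rl2* (15.4), *Il18r1* (19.0 and 17.2) and *Il18rap* (46.1) had peaks in *Wtap*-HKO only.

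*Il22ra1*, the chain that lets hepatocytes respond to IL-22, went the other way. Its 3 peaks in *Wtap* flox/flox had fold enrichments of 6.70, 8.86 and 12 over 899 nt, at chr4:135750766-135751125, chr4:135751244-135751423 and chr4:135751543-135751901 on the plus strand. In *Wtap*-HKO livers 1 peak of 151 nt was left, within the last of them, with a fold enrichment of 2.25. The log2 ratio of -2.41 was the lowest of the 47 pairs described below, and all 3 regions are rows of the differential table. *Il4ra*, the IL-4 binding chain, also had both of its peaks lower in *Wtap*-HKO livers. Its values were 16.6 and 4.96 in *Wtap* flox/flox livers and 8.64 and 3.20 in *Wtap*-HKO livers, and it has no row in the differential table. *Il13ra1*, the partner of *Il4ra* in the receptor of IL-13, had close values at its last exons (16.8 and 17.3). At its first exons a peak of 19.4 (FDR 4.0e-47) was in *Wtap*-HKO only and is a row of the differential table.

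Further interleukin receptor chains came next. *Il7r*, the IL-7 receptor of lymphocytes, had the highest fold enrichment of all 128 *Wtap*-HKO peaks, 101 over 987 nt at chr15:9506505-9507491 on the minus strand, and a second peak of 12.6. The first is the only row of the differential table for a receptor with no peak in *Wtap* flox/flox. *Il2rg*, the shared gamma chain, had 24.4, *Il2ra* 23.5 and *Il21r* 51.5 and 31.6, each in *Wtap*-HKO only. *Il2rb*, the beta chain, had 12.5 and 8.30 in *Wtap* flox/flox livers and 20.8 and 26.4 in *Wtap*-HKO livers, and the second is a row of the differential table. *Il12rb1* had 8.64 and 43.4, the highest log2 ratio of all pairs (2.33), but with a larger FDR in *Wtap*-HKO livers (1.0e-11) than in *Wtap* flox/flox (4.0e-30). *Il10ra*, the IL-10 binding chain, had a peak of 47.6 over 1286 nt in *Wtap* flox/flox livers and of 40.1 over 1376 nt in *Wtap*-HKO livers, and a smaller one of 11.4 and 17.6. *Il20rb* had 7.55 over 90 nt and 8.21 over 478 nt, and *Il27ra* (11.3) had a peak in *Wtap*-HKO only.

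In the IL-17 receptor family the peaks found in both lists had similar fold enrichments. *Il17ra*, the common chain, had 9.26 and 2.32 in *Wtap* flox/flox livers and 8.81 and 2.09 in *Wtap*-HKO livers, with a further small peak (1.60) in the latter. *Il17rb* had 11.6 and 12.3 at its 3´ end, over 748 and 509 nt, and is a row of the differential table. *Il17rc* (3.73) and *Il17rd* (39.8) had a peak in *Wtap*-HKO only.

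In the TNF receptor superfamily, the TNF receptors themselves were close between the genotypes at their 3´ parts. *Tnfrsf1a*, the widely expressed receptor of TNF, had 7.64 and 7.36 over the same 655 nt. *Tnfrsf1b*, the second receptor, had 14.3 and 17.0 in the first of its peaks and 7.28 and 8.26 in the other. *Tnfrsf14*, the receptor of *Tnfsf14*, had 2.90 and 6.06 at the same place, and *Tnfrsf19* had 14.9 and 20.8. *Tnfrsf11b* (osteoprotegerin), a soluble decoy receptor, had 12.6 in *Wtap* flox/flox livers and 54.2 in *Wtap*-HKO livers over 540 nt in each, and is a row of the differential table. A further 2 *Tnfrsf11b* peaks (8.71 and 24.4), the second 60 nt from the 5´ end, were in *Wtap*-HKO only. *Tnfrsf11a* (RANK) had a peak of 31.6 over 241 nt in *Wtap* flox/flox, which had 19.9 over 509 nt in *Wtap*-HKO livers, and another peak of 31.6 in *Wtap*-HKO only. *Tnfrsf21* (death receptor 6) had 5.62, 6.01 and 19.3 in *Wtap* flox/flox. In *Wtap*-HKO livers a spliced peak of 1080 nt (17.8) took the place of the first pair and is a row of the differential table, while the third stood at 20.8. Members with peaks in *Wtap*-HKO only were the death receptor *Tnfrsf10b* (5.19), the B cell receptors *Tnfrsf13b* (11.7 and 3.98) and *Tnfrsf13c* (23.5), and the decoy receptors *Tnfrsf22* (19.9, 19.9 and 22.6) and *Tnfrsf23* (12.6). *Tnfrsf22* and *Tnfrsf23* are paralogs, and the first 2 *Tnfrsf22* peaks overlap each other, so their counts are uncertain.

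**Figure D4:**
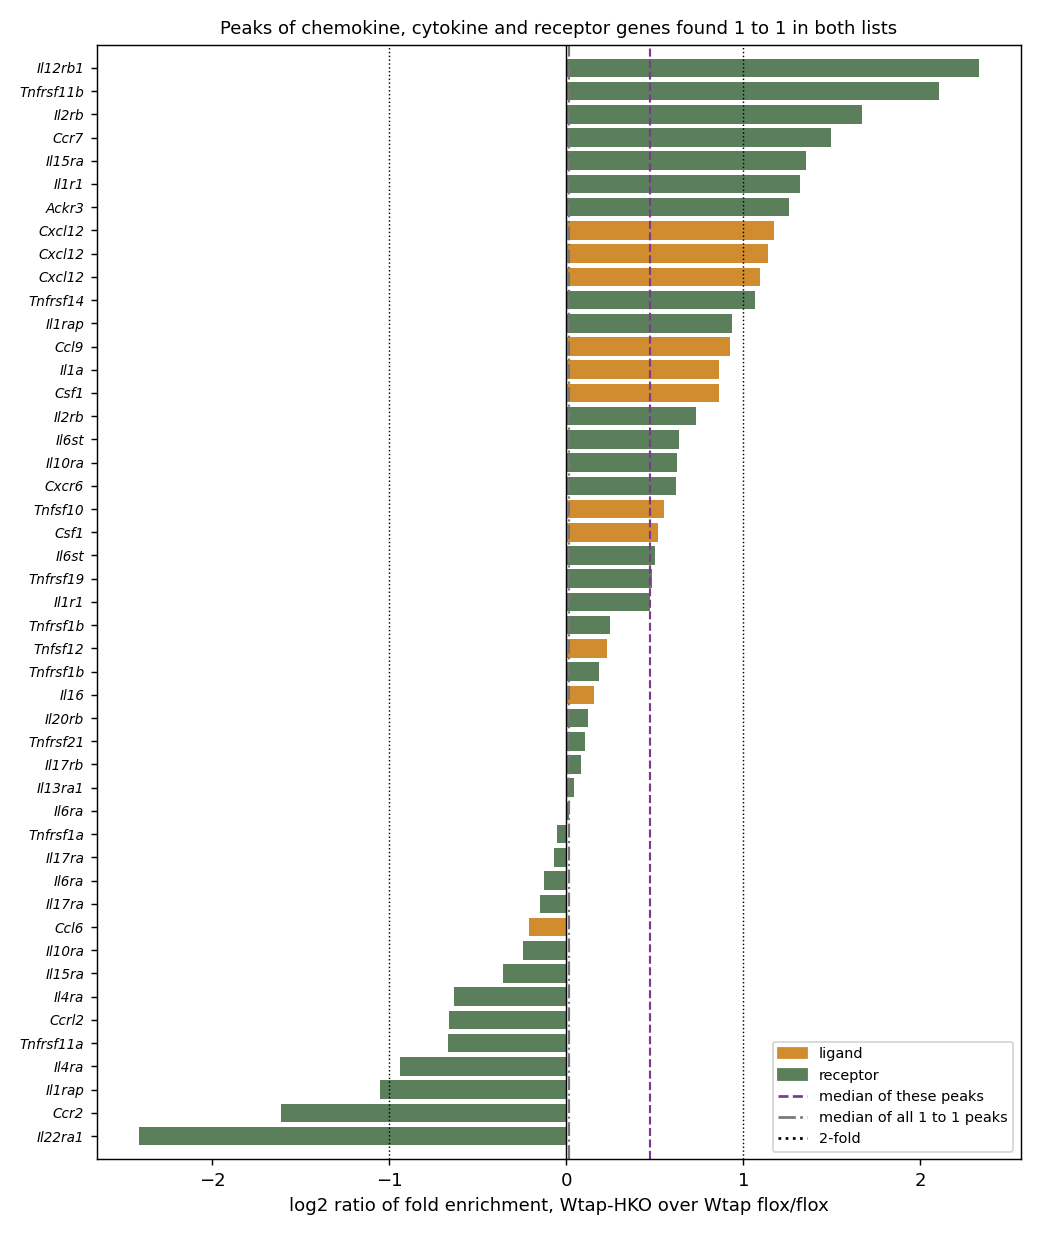
Log2 ratio of fold enrichment, *Wtap*-HKO over *Wtap* flox/flox, for the 47 peaks of these genes that met exactly 1 peak of the other list, by role, with dotted lines at 2-fold. The median of these peaks (dashed, 0.47) lies right of the median of all 10499 such peaks (dash-dotted, 0.01), and 33 of 47 bars point to higher values in *Wtap*-HKO livers.

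Peaks found 1 to 1 in both lists allow the fold enrichment itself to be set side by side. There were 47 such pairs, of which 33 were higher and 14 lower in *Wtap*-HKO livers, with a median log2 ratio of 0.47 (quartiles -0.10 and 0.93), beside 0.01 over all 10499 pairs. With only peaks of a fold enrichment of at least 2 the median of these genes was 0.25. Pairs over 2 times higher in *Wtap*-HKO livers were 11 of 47 (23.4%, exact 95% interval 12.3 to 38.0%), beside 14.9% of all pairs. Pairs over 2 times lower were 3 of 47 (6.38%, exact 95% interval 1.34 to 17.5%), beside 12.4% of all pairs. Both intervals include the share over all pairs. Ligands had 11 pairs with a median of 0.86, of which 10 were higher, and receptors had 36 pairs with a median of 0.15, of which 23 were higher. The 11 pairs over 2 times higher were in *Cxcl12* (3 pairs), *Il12rb1*, *Tnfrsf11b*, *Il2rb*, *Ccr7*, *Il15ra*, *Il1r1*, *Ackr3* and *Tnfrsf14*, and the 3 lower pairs in *Il22ra1*, *Ccr2* and *Il1rap*. Pairs of 1 gene share its RNA and are not independent.

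Overlap of the lists was uneven in direction. Of the 70 peaks in *Wtap* flox/flox, 65 (92.9%) shared a base with a *Wtap*-HKO peak and 5 (7.14%) did not, beside 19.9% without a partner over the whole list. The 5 were the 2 lost peaks of *Il22ra1*, the peaks of *Cxcl9* and *Ccl25*, and the peak of *Tnfrsf19* at its far 3´ part (6.27). Of the 128 *Wtap*-HKO peaks, 71 (55.5%, exact 95% interval 46.4 to 64.3%) had no partner, beside 35.3% over the whole list. The 36 genes with peaks in *Wtap*-HKO only held 49 of the 71. Of these 36, 25 had 1 peak, 9 had 2 and 2 had 3, and 18 had a peak with an FDR under 1e-10. Their peaks had a median fold enrichment of 17.2, and 17 of the 49 had values that recur in another gene. A high fold enrichment did not always come with a small FDR. *Ccr9* (19.9) had 5.4e-05 and *Il18r1* (19.0) had 9.5e-05, whereas *Il7r* (101) had 5.0e-29. The lists do not give the reads behind these ratios, so a ranking by fold enrichment is not a ranking by evidence.

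The deposited table of differential peaks held 17 of these genes' regions among 3870, in 14 of the 76 genes (18.4%, exact 95% interval 10.5 to 29.0%), beside 27.8% of all genes with a peak. The interval includes that share. The 14 genes were 2 ligands (*Cxcl12* and *Il34*), 11 receptors and *Il4i1*, and 2 of the 36 genes with peaks in *Wtap*-HKO only (*Il34* and *Il7r*) were among them. A gene with peaks in 1 list only is thus not the same as a gene with a differential peak in these files. How often all genes with peaks in *Wtap*-HKO only had such a row was not counted. The row of *Il4i1* overlaps peaks of *Nup62* and *Atf5*, and its other peaks overlap peaks of *Tbc1d17* on the opposite strand, so its reads cannot be assigned to it alone. Peaks of unnamed genes also overlap some peaks of *Il1rap* and *Il6ra*.

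**Figure D5:**
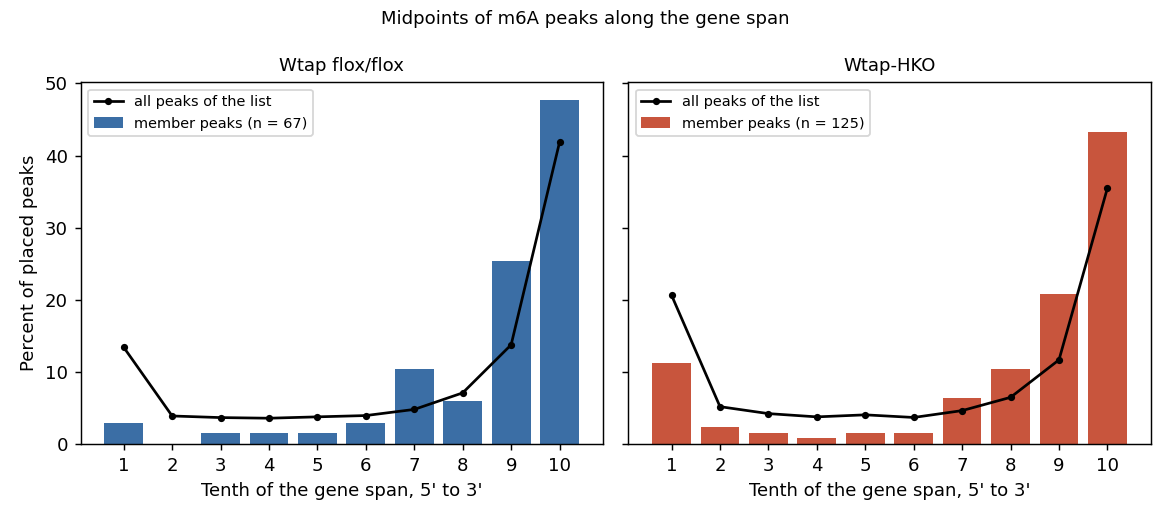
Percent of m6A peaks by the part of the RefSeq gene span, cut into steps of 10% from 5´ to 3´, that holds the midpoint of the peak, with bars for peaks of chemokine, cytokine and receptor genes (67 placed in *Wtap* flox/flox, 125 in *Wtap*-HKO livers) and a line for all placed peaks of each list. The last 10% is highest in both lists, and the first 10% holds 2.99% of the bars in *Wtap* flox/flox livers and 11.2% in *Wtap*-HKO livers.

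Most peaks lay in the 3´ part of the genes in both genotypes. The last 10% of the gene span held 47.8% of the 67 placed peaks in *Wtap* flox/flox livers and 43.2% of 125 in *Wtap*-HKO livers, beside 41.9% and 35.5% of all placed peaks. Within 200 nt of the 3´ end were 7 (10.4%) and 17 (13.6%), beside 10.1% and 8.31% of all placed peaks. The exact intervals, 4.30 to 20.3% and 8.13 to 20.9%, include these shares of all placed peaks. Gene spans include introns, so these shares do not give positions in the mature mRNA.

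At the 5´ end these genes had few peaks in *Wtap* flox/flox. Within 200 nt of it there was 1 of 67 (1.49%, exact 95% interval 0.0378 to 8.04%), that of *Ccl9*, beside 10.9% of all placed peaks. In *Wtap*-HKO livers there were 13 of 125 (10.4%, exact 95% interval 5.65 to 17.1%), beside 18.5% of all. The 13 were in *Ccl6*, *Ccl9*, *Cxcl16*, *Cxcr3*, *Il2rg*, *Il6ra*, *Il6st*, *Il10rb*, *Il13ra1*, *Il17rc*, *Tnfrsf1a*, *Tnfrsf10b* and *Tnfrsf11b*. Both lists had fewer peaks at the 5´ end in these genes than over all genes, and in both groups of genes the share was higher in *Wtap*-HKO livers. In *Tnfrsf1a* the fold enrichment at the 5´ end was 2.97 in *Wtap*-HKO only, beside the near equal peaks at its 3´ end. In *Il10rb* it was 19.9 in *Wtap*-HKO only, above the 3´ peak of 6.82, but at a larger FDR (1.1e-07 against 1.0e-155). In *Il15ra*, the IL-15 binding chain, the 5´ peak stood at 3.07 and 7.84 and the 3´ peak at 5.16 and 4.03, so that their order turned between the genotypes.

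A methylated adenosine at the first base of capped mRNA (m6Am) is recognised by the same antibodies. This makes the annotated first base of interest where a peak lies at or close to the start. RefSeq starts with a *Wtap*-HKO peak within the first 50 bases were found for 9 of these genes. Shown are the receptor starts with such a peak in *Wtap*-HKO only whose peak began no more than 200 nt into the gene span, 10 bases before and 20 bases from the start (RefSeq, GRCm38.p6, in the direction of transcription), with the first base of the transcript in capitals.
*Il6ra*, chr3:89913177-89913206, minus strand: aagtcgcgccCacaccgatctgagccacgc
*Il6st*, chr13:112464060-112464089, plus strand: tccggggggcGgggccgtggggggcggagc
*Il13ra1*, chrX:36112098-36112127, plus strand: cctccagcgcGcggcggccgggaagtggga
*Il17rc*, chr6:113471445-113471474, plus strand: gggacagggcGgggcgggaacagccactgc
*Il2rg*, chrX:101268236-101268265, minus strand: ctacgacaaaAggaaatgtatgggtgggga
*Tnfrsf1a*, chr6:125349713-125349742, plus strand: cttccggtccCgctcttgcaacaccacccc

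The annotated first base was A in 2 of the 9 genes, *Il2rg* and *Ccl9*, G in 4, C in 2 and T in 1. Over all 32851 listed starts it was A in 34.4%, and over the 2543 starts with a *Wtap*-HKO peak in 33.0%. GGAC, the core of the m6A motif, stood on the transcribed strand within the first 50 bases in 1 of the 9, *Il6st*, beside 18.9% of all listed starts and 21.2% of those with a *Wtap*-HKO peak. Not every peak covers the first base itself. Of the starts shown, the *Wtap*-HKO peak begins 30 nt after it in *Il6st*, 31 nt in *Il17rc* and 2 nt in *Il13ra1* and *Tnfrsf1a*. Annotated starts need not be the starts used in liver, and the peaks do not resolve single bases.

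Genes that act around these ligands and receptors were counted in the same way. Their counts stand beside 22.0% of all genes with a peak in *Wtap*-HKO only and 27.8% with a differential row. Both shares are over genes with a peak in either list. In the 4 lists below, 24, 18, 34 and 19 genes had such a peak. Of them 4, 3, 5 and 4 had it in *Wtap*-HKO only, in each list a smaller share than 22.0%. Of 31 cytokine and chemokine receptors that the name rule leaves out, 19 had peaks in both lists, 4 in *Wtap*-HKO only (*Crlf3*, *Ifnlr1*, *Cd40* and *Cd27*), 1 in *Wtap* flox/flox only (*Lepr*) and 7 in neither, and 10 had a differential row. *Csf1r* stands both in this list and among the Kupffer cell markers. The atypical chemokine receptors *Ackr2* (29.9 and 87.6), *Ackr4* (9.95 and 30.8) and *Ackr1* (7.03 and 20.4) had higher top values in *Wtap*-HKO livers, whereas *Fas* had 19.3 and 3.88. Of 22 genes of JAK kinases, STAT factors and their inhibitors, 15 had peaks in both lists, 3 in *Wtap*-HKO only (*Jak3*, *Stat3* and *Stat5b*) and 4 in neither, 5 had a differential row, and the bases covered were 10559 and 10743 nt. Of 35 adaptors and kinases of TNF and IL-1 receptors, 27 had peaks in both lists, 5 in *Wtap*-HKO only (*Myd88*, *Irak4*, *Ikbkb*, *Chuk* and *Nfkb2*), 2 in *Wtap* flox/flox only (*Tollip* and *Ikbkg*) and 1, *Relb*, in neither, 11 had a differential row, and 21045 and 23739 nt were covered. Of 22 G proteins, arrestins and effectors of chemokine receptors, 15 had peaks in both lists, 4 in *Wtap*-HKO only (*Gnb2*, *Gng2*, *Grk6* and *Plcb2*) and 3 in neither, 4 had a differential row, and 5136 and 10418 nt were covered. *Pik3cg*, the kinase downstream of these receptors in leukocytes, went from 24.6 over 151 nt to 104 over 1593 nt.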

How the data were processed

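m6ARIP-seq of 8 libraries (2 IP and 2 input per genotype) was examined. Per the submitters' processing notes and the study's methods, the authors trimmed 150 bp reads with fastp 0.19.11, aligned them to GRCm38 with BWA 0.7.12 and called peaks with exomePeak, replicates combined by a rule that is not given in the sources used here. The authors deposited fold enrichments as a linear ratio of IP over input, and false discovery rates as log10 scores, of which minus infinity is an FDR too small to be stored. The table of differential peaks also holds the authors' log2 fold change, p-value and FDR scores of the difference, which were not used; only its regions were. The lists give no reads, so depth and the smallest detectable enrichment are unknown, and 0 columns held values of single libraries.

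Genes were chosen by name. Peaks of both lists that had 1 or more exonic bases in common on a strand were taken as shared. Peaks were placed on RefSeq spans (GRCm38.p6, strand from the lists), which matched all 76 genes by symbol. Starts are printed 1-based. Shares carry exact binomial (Clopper-Pearson) 95% intervals for counting error only, although peaks of 1 gene are not independent. No test between genotypes was possible. Python 3.11.15, pandas 2.3.3, numpy 2.4.6, scipy 1.17.1 and matplotlib 3.10.9 were used, and the pairing and placing were tested on simulated peaks.

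The members, gene lists and markers were chosen with earlier results of these data known. Named were *Ccl2*, the RT-qPCR genes under the name rule, every ligand with a peak, receptors with a differential row, the 6 highest receptor peaks of each list, receptors with 3 or more peaks, and receptors with peaks in 1 list only. Other receptors (*Ackr3*, *Ccrl2*, *Il4ra*, *Il10rb*, *Il12rb1*, *Il15ra*, *Tnfrsf1a*, *Tnfrsf1b*, *Il20rb*, *Tnfrsf14* and *Tnfrsf19*) and single genes of the lists around them were named after their values were seen. Results for some single genes of the lists are not reported here.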

Additional observations from a re-analysis of the deposited data

How the results depend on the processing

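No paired analysis was possible because the replicates are combined in every list, and for the same reason no replicate could be left out. Of 59 alternatives, 49 moved a count by less than 1.5 times or a share or median within its interval or quartiles, and 10 moved it further. Only the median log2 ratio could change direction under these rules, and it stayed positive in each of its alternatives. An FDR under 0.01 left every count of genes and peaks unchanged, so it says little about their stability. Without the interleukin genes the genes with a peak were 22 in *Wtap* flox/flox, 41 in *Wtap*-HKO livers and 20 in *Wtap*-HKO only, by construction. With 50% of the exonic bases shared, 32.8% of *Wtap*-HKO peaks had a partner in place of 44.5%; the cause was not tested. Peaks near the 3´ end were 20.9% within 500 nt and 47.8% in the last 10% of the span in *Wtap* flox/flox, and 7.2%, 24.0% and 43.2% within 100 nt, within 500 nt and in the last 10% in *Wtap*-HKO livers. Matched by gene name, 62 peaks of both lists fell to the differential table in place of 30, since every peak of a listed gene then counts. The median log2 ratio of pairs was 0.25 at a fold enrichment of at least 2 and 0.61 with the best overlap for each *Wtap* flox/flox peak. With an FDR under 1e-10, an alternative added after the data were seen, 28 genes had a peak in *Wtap* flox/flox, 56 in *Wtap*-HKO livers and 29 in *Wtap*-HKO only. Of the 36 genes with peaks in *Wtap*-HKO only, 18 passed this limit. The rest of the 29 have a listed *Wtap* flox/flox peak that did not pass it, as in *Ccr7* (FDR 1.2e-10). The share over all genes at this limit was not counted. Removing *Il4i1* and counting any listed RefSeq start were also added then. Depth is unknown, so a gene without a peak may lie under the limit of detection, and how far depth or RNA level moves with the number of peaks was not tested.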
